A study of Gallus gallus with 7 samples.

Results

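Chicken chromosome 4 carries, on its short arm, a former microchromosome that was joined to a macrochromosome in the chicken's ancestry and that stays a separate small chromosome in most other birds. Bird genomes combine a few large macrochromosomes with many small microchromosomes, and microchromosomes are in general richer in genes, in GC and in CpG islands. CpG islands are short CpG-rich stretches, often at gene promoters, that are mostly unmethylated, whereas scattered CpGs of vertebrate genomes are mostly methylated. The 3268 segments of chromosome 4 were taken from the authors' table of 53008 short genomic segments, without regard to their methylation. They were split at 20 Mb on the galGal5 build into a short-arm part with 1232 segments, whose start lies below that position, and the rest of the chromosome with 2036 segments.

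The methylation values come from microglia, the resident macrophages of the brain, sorted from pools of 10 to 12 chicks each on day 10 after hatch, before any immune challenge. The tissue was the anterior hypothalamus, which takes part in the control of body temperature. Reduced representation bisulfite sequencing (RRBS), which reads CpG-rich fragments and detects methylated cytosines because bisulfite leaves them unconverted, was run on 4 libraries from non-conditioned chicks and 3 from conditioned chicks, which had spent 24 hours at 39 °C on day 3. The conditioned libraries are numbered 1-2, 3 and 4, and the labels do not say how number 1-2 was made. For chromosome 4 the analysed values are the authors' mean percent methylation of each group in each segment, so the spread between libraries is unknown there, the read depth is unknown, and no test between the groups was made on it. Genes could not be assigned to segments, because no annotation of galGal5 was used here, and whether the cells express microglial markers cannot be read from methylation.

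Segments crowded the short arm. It held 37.7% of the segments of chromosome 4 on 21.4% of the length covered, which is 63.6 segments per Mb against 28.6 per Mb in the rest, a ratio of 2.23. The ratio was 2.25 when segments less than 1 kb apart were joined into clusters (379 clusters in the short-arm part and 619 in the rest) and 2.20 when CpG positions in segments were counted. A position here is a cytosine of either strand, and every segment has at least 10. Bases inside segments made up 0.457% of the short-arm part and 0.184% of the rest. Counted in windows of 100 kb, 79 of 195 windows of the short-arm part held no segment (40.5%), against 383 of 713 in the rest (53.7%), and windows with segments held a median of 7 and 4.

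The crowding was strongest at the free end of the short arm. The first 2 Mb held 310 segments, the next 2 Mb 215 and the following 2 Mb 122, whereas bins of 2 Mb in the rest of the chromosome up to 90 Mb ran from 19 to 143 segments with a median of 53. Within the short-arm part the bins ran from 6 to 310. The bin of 6 segments, at 6 to 8 Mb, holds the start of a stretch of 1492782 bp without any segment, between 7056981 and 8549764. Without its first 4 Mb the short-arm part had 45.9 segments per Mb and the ratio to the rest was 1.60. Among the 34 ends (first or last 4 Mb) of the 17 chromosomes that span at least 12 Mb, 2 had more segments than the 525 of the first 4 Mb of chromosome 4. The opposite end of the chromosome was sparse, with 68 segments in the last 4 Mb, and 32 of the 34 ends had more.

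**Figure D1:**
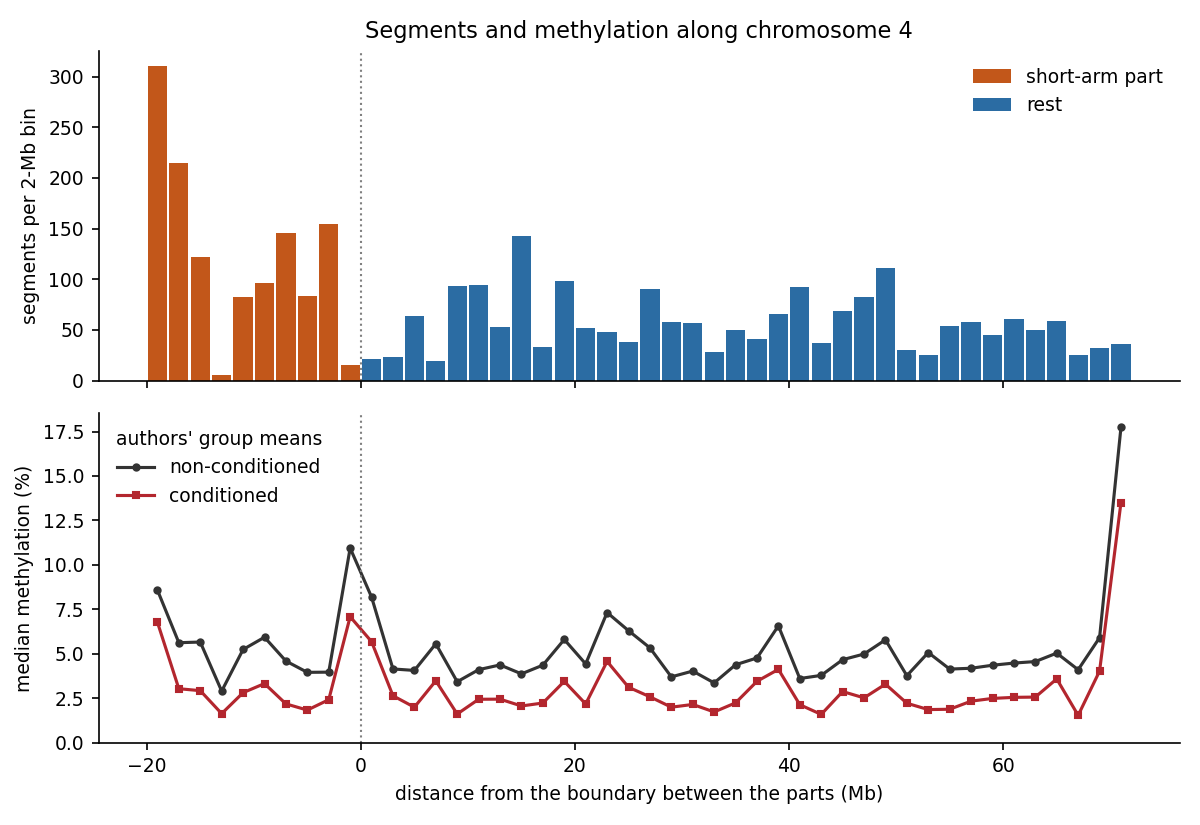
Segments per 2-Mb bin (top) and median methylation of the segments in each bin by group (bottom, percent, authors' group means) against distance from the boundary at 20 Mb; the last bin holds only the 36 segments beyond 90 Mb. Bars peak at 310 segments at the free end of the short arm, and both lines are highest at the last bin, at 17.7% and 13.5%.

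The boundary falls in a stretch with few segments. The last segment below it, at 19423727 to 19423781 (19 positions), had 3.00% and 0.972% methylation without and with conditioning. The first above it, at 20040118 to 20040145 (10 positions), had 4.21% and 2.26%, and the 616336 bp between them held none. Only 15 segments lie at 18 to 20 Mb and 21 at 20 to 22 Mb, and these bins had higher median methylation than their neighbours, 10.9% and 8.20% in non-conditioned microglia. With the boundary at 18, 19, 21 or 22 Mb the density ratio was 2.43, 2.31, 2.06 and 2.00.

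Set among 28 other chromosomes with at least 100 segments, both parts of chromosome 4 took different places. By segments per Mb the short-arm part ranked 10 of 30 from the lowest, between chromosome 8 (61.9) and chromosome 22 (68.3), and the rest ranked 3, between Z (27.8) and chromosome 2 (28.9). Microchromosomes of similar or smaller length, chromosomes 10 to 15, ran from 70.3 to 100.3 per Mb, all above the short-arm part. Macrochromosomes 1, 2, 3 and 5 ran from 26.7 to 53.6, a range that holds the rest of chromosome 4. The density of the short-arm part thus lay between those sets and inside the range of chromosomes 6 to 9 (52.7 to 68.7). These are places among chromosomes, and no test of the difference was made.

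**Figure D2:**
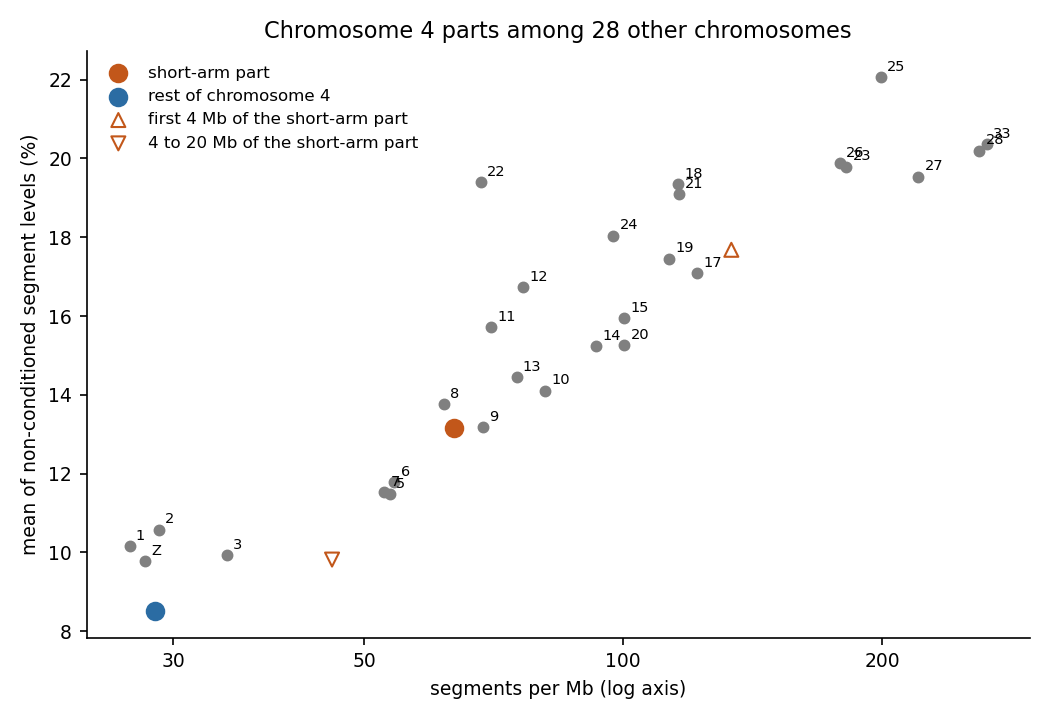
Mean of the non-conditioned segment levels (percent) against segments per Mb on a log axis, for 28 other chromosomes (grey, numbered), both parts of chromosome 4 (filled circles) and the 2 zones of the short-arm part (open triangles). The short-arm part, at 63.6 per Mb and 13.2%, sits beside chromosomes 8 and 9, its first 4 Mb near chromosomes 17 and 19, and the rest of chromosome 4, at 8.51%, below every other chromosome plotted.

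Inside segments, the counted CpG positions were more spread out on the short arm. On chromosomes with library values, the count equalled the positions measured in all 7 libraries. It can therefore miss CpGs of the sequence, whose spacing was not measured. Positions stood at 17.5 per 100 bp of segment in the short-arm part and at 19.8 in the rest, where chromosomes 10 to 15 had 16.6 to 18.6 and chromosomes 1, 2, 3 and 5 had 18.6 to 19.7. The rest of chromosome 4 was the densest of the 30 by this measure. Median segment length was 50 and 47 bp, with a median of 11 positions in both parts. This too followed the free end: the first 4 Mb had 14.9 positions per 100 bp, whereas 4 to 20 Mb had 20.1, close to the 20.3 of 20 to 88 Mb. The richest segments were at 49521813 to 49522052, with 52 positions in 240 bp and 3.13% and 3.27% methylation without and with conditioning, and at 50360772 to 50360909, with 51 positions and 4.32% and 1.55%. On the short arm the maximum was 38 positions, at 12547834 to 12547970 (11.9% and 8.21%) and at 13072647 to 13072775 (4.69% and 1.21%).

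Most segments of chromosome 4 were nearly unmethylated, and the short arm held more of the methylated ones. In non-conditioned microglia the median level was 5.55% in the short-arm part and 4.59% in the rest. In conditioned microglia the medians were 2.89% and 2.51%. Under 10% in non-conditioned microglia lay 846 of 1232 short-arm segments (68.7%) and 1620 of 2036 in the rest (79.6%), where all 53008 segments had 66.7%. At 50% or more lay 87 short-arm segments (7.06%) and 54 in the rest (2.65%), and 8.53% of all segments. Mean levels were 13.2% and 8.51% without conditioning and 11.2% and 6.48% with it. The rest of chromosome 4 had the lowest median, the lowest mean and the lowest share at 50% or more of the 30 chromosomes and parts. The short-arm part ranked 10, 9 and 10 from the lowest, with a mean and a median below each of chromosomes 10 to 15 (means 14.1% to 16.7%, medians 5.62% to 6.10%).

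**Figure D3:**
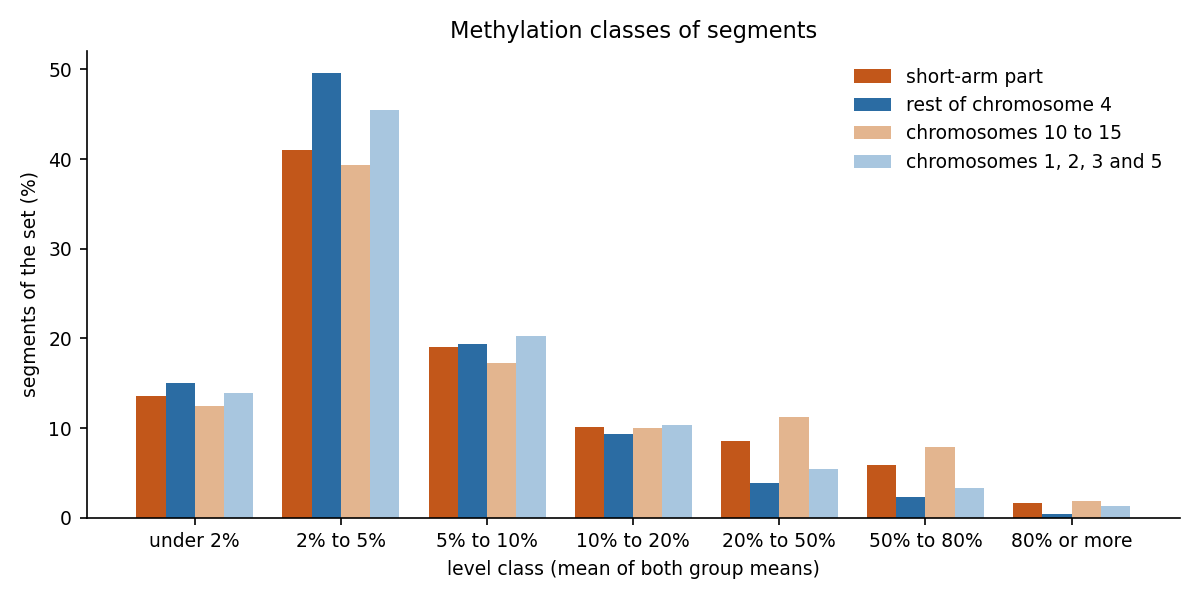
Share of segments (percent of each set) in 7 classes of methylation level, by the mean of both group means, for both parts of chromosome 4 and 2 sets of other chromosomes. The class of 2% to 5% holds 41.1% of the short-arm part and 49.6% of the rest; at 20% to 50% the short-arm part has 8.60% and the rest 3.93%, with chromosomes 10 to 15 at 11.2%.

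The higher level of the short arm also came with its free end. In the first 4 Mb the non-conditioned median was 7.08%, the mean 17.7%, and 61 of 525 segments stood at 50% or more (11.6%). From 4 to 20 Mb the median was 4.57%, the mean 9.82%, and 26 of 707 segments stood at 50% or more (3.68%). The 1968 segments from 20 to 88 Mb had a median of 4.53%, a mean of 7.96% and 39 at 50% or more (1.98%). The far end of the long arm, beyond 88 Mb, was also methylated, with a median of 10.5%, a mean of 24.5% and 15 of its 68 segments at 50% or more (22.1%). Raised levels at an end were not particular to chromosome 4: of the 34 chromosome ends, 12 had a higher mean than its first 4 Mb and 2 a higher mean than its last 4 Mb. Its last segment, at 91267805 to 91267896, had 87.6% and 82.6%, and the most methylated of the long arm, at 91263576 to 91263621, lies 4 kb before it with 94.9% and 88.1%. The most methylated short-arm segments were at 11266539 to 11266638 (95.9% and 88.7%) and 5061993 to 5062027 (95.7% and 92.5%).

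Segments that stood alone were more methylated than clustered ones, as they were over all segments. A segment with no other within 1 kb had a non-conditioned median of 27.6% in the short-arm part (138 segments) and of 7.95% in the rest (211 segments). Lone segments over all chromosomes had 23.4%, so the short arm lay near that value and the rest of chromosome 4 below it. Of the 138, 85 lay in the first 4 Mb. Conditioned medians of the lone segments were 23.7% and 4.18%. In clusters of 2 to 4 segments the non-conditioned medians were 6.06% (402 segments) and 4.87% (726 segments), with 5.97% and 1.52% of them at 50% or more. In clusters of 5 to 9 segments the non-conditioned medians were 4.41% (486 segments) and 4.23% (790 segments), and in clusters of 10 or more 4.38% (206) and 3.76% (309). Segment length went with level as well: up to 40 bp the medians were 3.73% and 3.67%, and over 100 bp 14.1% and 7.06%. Over all segments the medians were 4.12% up to 40 bp and 13.4% over 100 bp. Medians of the shortest segments and of clusters of 5 or more were thus close on both arms, but their shares at 50% or more were not: these were 3.46% and 0.733% up to 40 bp, and 4.32% and 0.759% in clusters of 5 to 9.

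The largest clusters had low medians. On the short arm, 20 segments with 284 positions lay at 15707243 to 15709857, with a non-conditioned median of 4.20% (range 0.860% to 26.4%) and a conditioned median of 2.78%, and 19 of the 20 were lower in conditioned microglia. The next, 15 segments at 2296298 to 2298709, had medians of 3.76% and 2.25%. In the rest of the chromosome, 18 segments at 60455071 to 60459433 had 4.09% and 2.79%, and 17 at 39677567 to 39681609 had 8.69% and 5.54%. The window of 100 kb richest in segments began at 1600001, with 56 segments, a non-conditioned median of 10.3% and 10 segments at 50% or more. At 1800001 began a window with 37 segments and a median of 23.0%, 12 of them at 50% or more. The richest window of the rest, from 29400001, had 39 segments, a median of 3.43% and none at 50% or more, and all 39 were lower after conditioning. In the windows from 1600001 and 1800001, 38 of 56 and 26 of 37 segments were lower. In the clusters of 15, 18 and 17 segments, 12, 13 and 13 were lower, beside 81.4% of all chromosome 4 segments.

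Neighbouring segments were weakly correlated in level, and their difference between the groups, taken with its sign, was mostly uncorrelated. Among 1443 pairs of neighbours no more than 100 bp apart on chromosome 4, Spearman's rho was 0.289 for the level and -0.02 for the difference, and among 714 pairs over 10000 bp apart it was 0.109 and 0.04. The largest rho for the difference was 0.142, over 295 short-arm pairs at over 100 bp up to 1 kb. Such pairs of the rest had -0.004. At 1 to 10 kb the level had a rho of 0.364 over 283 pairs, more than the closest pairs of the whole chromosome. The median gap in level between neighbours was nevertheless wider there, at 10.3 points against 1.79 points up to 100 bp. The parts differed in the order of rho. In the rest, rho for the level was 0.357 at 1 to 10 kb and 0.2198 up to 100 bp. In the short-arm part it was 0.291 at 1 to 10 kb, less than the 0.388 up to 100 bp. The closest pairs thus had a higher rho for the level on the short arm, yet their median gap in level was not smaller. This gap was 1.95 points on the short arm and 1.71 points in the rest, and neither contrast was tested. Both neighbours differed in the same direction in 75.3% of pairs up to 100 bp apart, 69.9% at over 100 bp up to 1 kb, 63.3% at 1 to 10 kb and 69.3% beyond. Since 81.4% of chromosome 4 segments were lower in conditioned microglia, unrelated segments would mostly share a direction too. No share for unrelated segments was set beside these, so they do not decide whether neighbours are alike in direction. Neighbours share libraries and base composition, so these values are descriptions.

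By the authors' group means, methylation after heat conditioning had lower values in most segments of both parts, by close to the same amount. The median difference, conditioned minus non-conditioned, was -1.88 percentage points in the short-arm part (quartiles -3.74 and -0.794) and -1.92 in the rest (quartiles -3.44 and -0.970), against -1.88 over all segments. Lower were 975 of 1232 short-arm segments (79.1%) and 1684 of 2036 in the rest (82.7%), beside 77.6% of all 53008 segments. All 46 bins of 2 Mb had a median below 0, from -3.37 to -1.07 points. Chromosomes 10 to 15 had medians of -2.03 to -1.74 points and chromosomes 1, 2, 3 and 5 of -1.95 to -1.81, so neither part stood outside the range of other chromosomes. The share of lower segments in the rest of chromosome 4 was the second highest of the 30.

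The difference depended on the level, and within a level both parts of chromosome 4 had close values up to 20%. Under 2% the median difference was -1.12 points in both parts, and at 2% to 5% it was -1.90 in both. At 5% to 10% it was -3.41 in the short-arm part and -3.45 in the rest, and at 10% to 20% -3.71 and -3.63. Over all segments these classes had -1.10, -1.87, -3.46 and -3.64 points, so the closeness was not particular to chromosome 4. A class is set by the mean of both groups, so the lowest classes leave little room for a difference. At 20% to 50% the direction turned: the median was 3.96 points in the short-arm part, with 66 of 106 segments higher in conditioned microglia, and 2.29 points in the rest, with 42 of 80 higher. Over all segments that class had 4.23 points and 59.8% higher. At 50% to 80% the medians were -3.71 and -3.20 points, with 35 of 72 and 21 of 47 segments higher. Over all segments that class had -2.12 points and 47.9% higher. At 80% or more 12 of 20 short-arm segments and 8 of 9 in the rest were lower, beside 64.6% of all segments in that class.

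**Figure D4:**
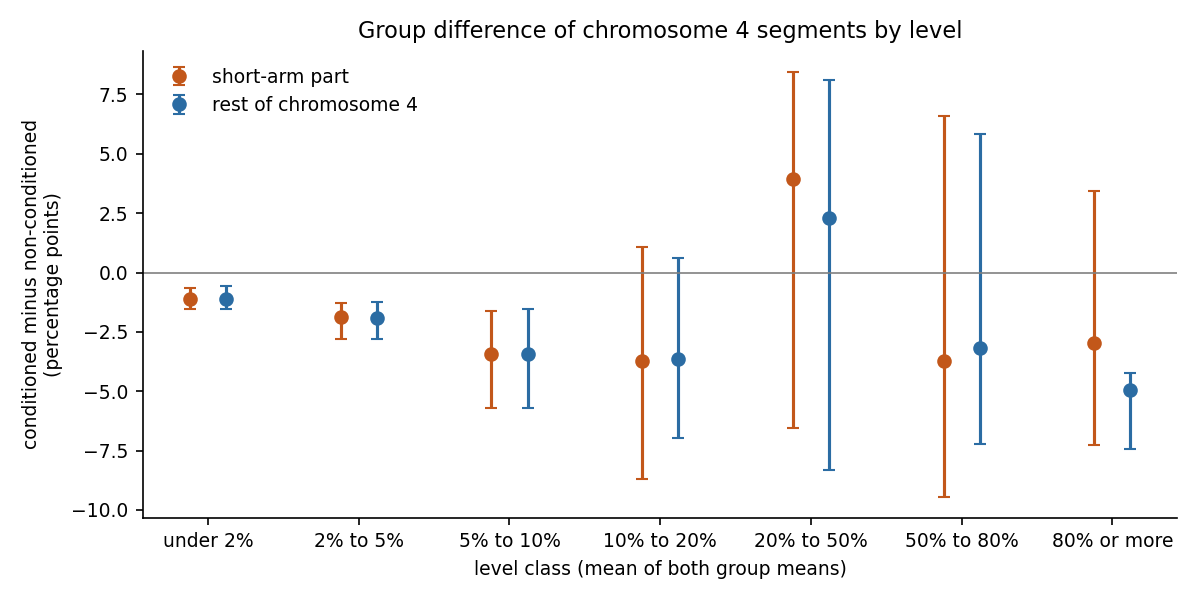
Median difference of chromosome 4 segments, conditioned minus non-conditioned in percentage points, in 7 classes of level; points are medians and bars run from the lower to the upper quartile of segments, which is a spread over segments and not an error over libraries. Both parts overlap up to 20%, and only the class of 20% to 50% has medians above 0, at 3.96 and 2.29 points.

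Library values on other chromosomes give the replicate error that chromosome 4 lacks. They were available for 11570 segments on chromosomes 1 and 10 to 14, which were found on the same libraries and are therefore no independent evidence. At 2% to 5%, the class that holds 46.4% of chromosome 4 segments, the mean of 4925 such segments was 3.99%, 4.002%, 4.28% and 4.23% in non-conditioned libraries 1 to 4, and 3.62%, 1.52% and 1.83% in conditioned libraries 1-2, 3 and 4. All conditioned libraries were lower, but number 1-2 lay much nearer to the non-conditioned ones. The difference of -1.80 points had an exact permutation p of 0.0286, two-sided, the smallest that 4 against 3 libraries allow, and a Benjamini-Hochberg adjusted exact p of 0.05 over 7 classes. Under 2%, at 5% to 10% and at 80% or more, all conditioned libraries were also lower, with the same exact p. At 10% to 20% the groups overlapped: conditioned library 1-2 had 15.2%, against 14.8% to 16.6% without conditioning (exact permutation p = 0.0857). The groups also overlapped at 50% to 80%, with a difference of -0.836 points (exact permutation p = 0.743). That difference was -3.10 points without conditioned library 1-2 and 1.32 points without conditioned library 3.

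At 20% to 50% a single library carried the higher mean. Conditioned library 1-2 had 41.1% over 983 segments, conditioned libraries 3 and 4 had 29.3% and 32.8%, and the non-conditioned libraries had 31.2%, 32.7%, 33.3% and 33.6%. The difference was 1.68 points (exact permutation p = 0.743), and without library 1-2 it was -1.68 points (exact p = 0.267). Which libraries stand behind the turn on chromosome 4 was not tested.

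Means over all positions measured in every library, inside segments or not, placed the conditioned libraries on both sides. Number 1-2 had the highest mean of the 7 libraries on each of chromosomes 1 and 10 to 14, and numbers 3 and 4 lay below all others. On chromosome 1 these were 16.1%, 12.8% and 13.7%, against 15.0% to 15.8% without conditioning. In these means the step in level from macrochromosome to microchromosome was present in every library. Chromosomes 10 to 13 exceeded chromosome 1 by 5.95, 6.25, 6.10 and 6.28 points in non-conditioned libraries 1 to 4, and by 7.04, 5.87 and 6.43 points in conditioned libraries 1-2, 3 and 4. The groups overlapped, with 6.15 ± 0.153 (SD, n = 4) and 6.44 ± 0.587 (SD, n = 3) points, a difference of 0.297 points (two-sided exact permutation p = 0.429). This is the contrast with library values that comes nearest to that between both parts of chromosome 4. There the deposited means differed by 4.66 points without conditioning and by 4.72 points with it. Those are means over segments, whereas the library values are means over positions, so the sizes are not comparable.

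In the authors' deposited table, 23 segments of chromosome 4 had a q-value under 0.05, which is 0.704% of them, beside 0.683% of all segments. On the short arm there were 11 (0.893%), of which 10 were lower and 1 higher in conditioned microglia, and in the rest 12 (0.589%), all lower, where 0.621% of all segments were called lower and 0.0623% higher. A mean under 10% without conditioning was given for 20 of the 23, and 21 had at least 15 positions, as did 20.1% of all segments of chromosome 4. The shares called therefore lay near the background in both parts. The smallest Mann-Whitney p in the authors' deposited table was 4.42e-14 on this chromosome, whereas 4 against 3 libraries as replicates allow no exact permutation p under 0.0286. The q-values of the 23 followed the order of the Kolmogorov-Smirnov p in the authors' deposited table, smallest 3.67e-13, and not that of the Mann-Whitney p. On chromosomes with library values, the libraries of the groups did not overlap in 56 of 78 segments that passed in the authors' deposited table (71.8%), beside 19.2% of all 11570, a description only since they were found on those libraries.

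Among called segments of the short arm, the smallest q was that of the segment at 13072647 to 13072775, with 4.69% and 1.21% methylation without and with conditioning (q = 7.03e-07 in the authors' deposited table). The crowded end holds 1118077 to 1118156 with 4.99% and 1.84%, 1509930 to 1509990 with 7.63% and 2.21%, and 1567486 to 1567582 with 7.08% and 1.47%. The last of them belongs to a cluster of 10 segments. These 3 are 0.571% of the 525 segments of the first 4 Mb. From 4 to 20 Mb, 8 of 707 were called (1.13%), beside 0.683% of all segments. Farther in, 4019111 to 4019161 had 5.76% and 0.801%, and 8580188 to 8580253 had 5.25% and 0.921%. The segment at 12251189 to 12251237 had 7.27% and 1.62%, and that at 13563461 to 13563505 had 6.03% and 2.15%. A pair lies close together near the boundary side, at 16447119 to 16447497 with 3.62% and 1.91% and at 16458604 to 16458666 with 6.43% and 1.99%. Each of these was below 10% in both groups, so that lower methylation by 10 points was not possible.

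The single segment called higher lay in a row of segments that were all higher in conditioned microglia. At 11437013 to 11437067 (10 positions) the means were 40.7% and 59.5% (q = 0.00548 in the authors' deposited table). Its 3 neighbours, looked at because of it, were at 11436502 to 11436656 with 22.4% and 46.6%, at 11436920 to 11436977 with 47.5% and 63.5%, and at 11437068 to 11437165 with 51.8% and 64.1%. These 4 segments, with 14, 14, 10 and 14 positions, differed by 12.3 to 24.2 points in the same direction within 664 bp. No other segment lies within 5 kb of the called one.

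In the rest of the chromosome the smallest q, and the largest called difference, belonged to 65127976 to 65128050 (18 positions), with 13.8% and 1.62% (q = 1.57e-07 in the authors' deposited table). The other called segment above 10% was 58157484 to 58157601, with 12.6% and 3.31%. Its cluster also holds 58157097 to 58157186, which differed the other way with 5.595% and 24.6%, so that segments of 1 cluster differed in opposite directions. At levels under 5% without conditioning and with 15 to 18 positions were 29428663 to 29428702 with 3.80% and 0.963%, 40738859 to 40738892 with 3.49% and 0.691%, 51125645 to 51125688 with 4.21% and 1.01%, and 53718305 to 53718362 with 4.14% and 1.10%. Close to them in level were 35476950 to 35477000 with 5.14% and 1.36% and 65393757 to 65393823 with 3.66% and 1.59%. Somewhat higher were 61629307 to 61629366 with 7.81% and 1.01%, 67227335 to 67227385 with 6.97% and 2.29%, 68573138 to 68573207 with 6.70% and 1.96%, and 79499958 to 79500016 with 6.29% and 1.56%.

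**Figure D5:**
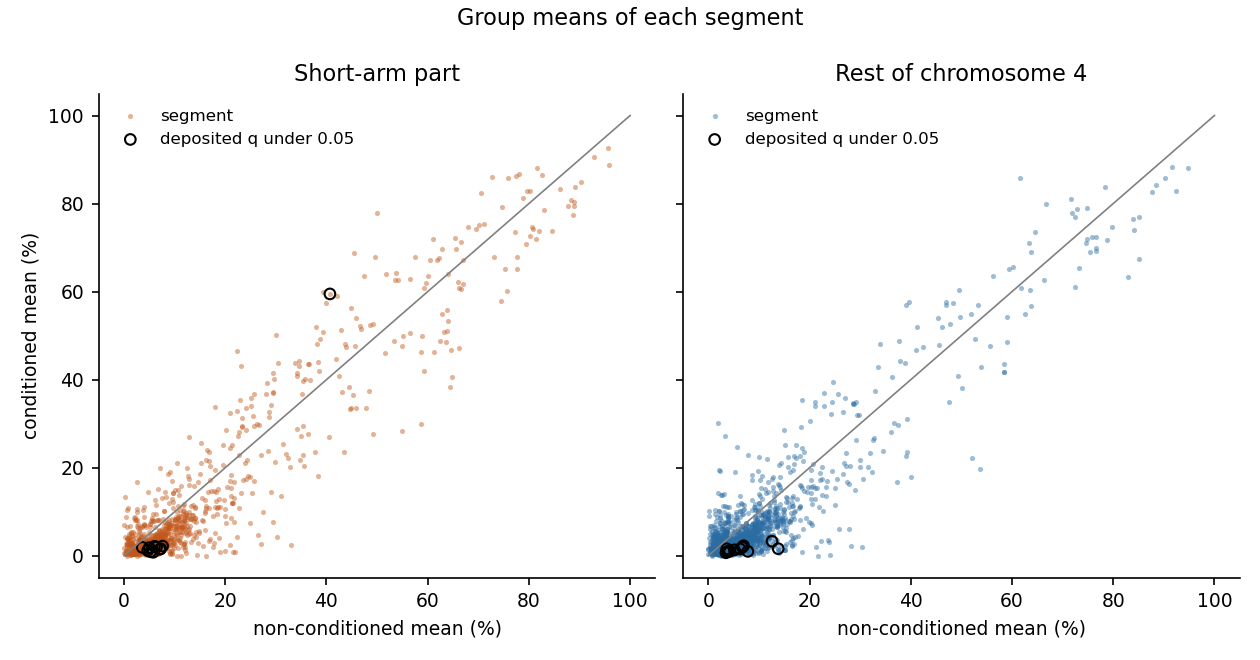
Authors' mean methylation (percent) in conditioned against non-conditioned microglia for each of the 1232 short-arm segments (left) and the 2036 other segments of chromosome 4 (right), with the line of equal values; circles mark a deposited q-value under 0.05. Circled segments sit under the line near 0 except 1 short-arm segment at 40.7% and 59.5%.

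Large differences took a share of the short arm near that of all segments, and a smaller share of the rest. The first 4 Mb holds 42.6% of the short-arm segments. Differences of 10 points or more toward higher methylation were found in 39 short-arm segments (3.17%) and 35 in the rest (1.72%), where all segments had 3.07%, and 27 of the 39 lay in the first 4 Mb. Toward lower methylation there were 73 (5.93%) and 69 (3.39%), where all segments had 5.53%, and 40 of the 73 lay in the first 4 Mb. At 15 points or more the short arm had 12 higher (0.974%, background 1.1%) and 30 lower (2.44%, background 1.93%), of which 9 and 18 lay in the first 4 Mb. The rest had 10 higher (0.491%) and 21 lower (1.03%). Segments with library values put a limit on such differences. Of 342 that differed by 15 points or more, the libraries of the groups did not overlap in 110 (32.2%), beside 19.2% of all 11570. The wider spread was in the group with the higher level. For those lower after conditioning the median SD was 16.8 points among non-conditioned and 4.86 points among conditioned libraries, with 35.3% not overlapping, and for those higher it was 8.80 and 16.0 points, with 26.6% not overlapping.

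The largest differences toward higher methylation on the short arm were at intermediate levels. The segment at 1038125 to 1038374, which stood alone, had 50.1% and 77.9% without and with conditioning. Also in the crowded end, 2015916 to 2016051 had 45.4% and 68.8%, 1058715 to 1058773 had 39.3% and 59.8%, and 1066802 to 1066861 had 30.0% and 50.2%. The remaining one of the 5 belongs to the row of 4 described above. In the rest of the chromosome, by contrast, 3 of the 5 largest had low levels without conditioning. The segment at 29814468 to 29814638 had 1.95% and 30.3%, and the other 14 segments of its cluster were lower. At 31100436 to 31100473 the means were 3.33% and 27.3%, and the third is the segment at 58157097 given above. The other 2, at 43674427 to 43674667 and 65872911 to 65872941, had 61.6% and 85.9%, and 39.6% and 57.6%.

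The largest differences toward lower methylation ended at low levels in several segments. On the short arm, 9108894 to 9108966 had 32.9% and 2.50%, and 2019869 to 2019915 had 30.3% and 4.18%. The last of these lies 3818 bp from the segment at 2015916, which was higher. From intermediate levels, 702351 to 702413 had 58.8% and 30.0%, 9431112 to 9431220 had 55.0% and 28.4%, and 2182703 to 2182963 had 64.3% and 38.3%. In the rest, the widest gap of the chromosome was at 31827518 to 31827567 (12 positions), with 53.6% and 19.8%. Others were near 0 in conditioned microglia, at 45128872 to 45128915 with 30.4% and 1.92%, at 76542238 to 76542290 with 28.1% and 2.27%, and at 79131195 to 79131309 with 23.96% and 0.278%. The segment at 29784213 to 29784253 had 52.1% and 22.3%. None of these 10 had a q-value under 0.05 in the authors' deposited table, and 7 of them had the minimum of 10 positions. Nor had any of the 10 largest differences toward higher methylation. With 0.683% of all segments called, a lack of calls in sets this small is not read as a result about them.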

How the data were processed

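The members, lists and comparison chromosomes were chosen with earlier results of these data known. Per the submitters' processing notes, Trimmomatic, Bismark 0.22.3, Bowtie and HOMER were used on galGal5. How segments were made is not given in the sources used here. The deposited site table gives percent methylation per position and library, and holds no position of chromosome 4. The deposited segment table gives, per the file headers, group means in percent, p-values, q-values and a count of CpG positions. The deposited difference, a score in percentage points, is non-conditioned minus conditioned; differences here were recomputed as conditioned minus non-conditioned. Averages over positions common to all 7 libraries gave both deposited means within 0.01 points in 11570 of 11570 segments, with the first coordinate counted from 0. Coordinates are printed counted from 1.

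Lengths run from the first to the last segment. Level classes use the mean of both group means. Named were all segments with a deposited q-value under 0.05, the 5 largest differences each way, the richest 100-kb windows, and the segments at the ends and the boundary of each part. The richest, most methylated and clustered segments, the zones at 4 and 88 Mb and the chromosome ends were chosen after values were seen. Library tests were two-sided exact permutation tests over 35 arrangements and measure the spread between pools. Summaries were tested on simulated data. Of 51 listed immune, chromatin and stress genes, RefSeq (GRCg7b) puts 42 on chromosome 4, among them TLR3, NFKB1, TET2 and ATRX; none was matched to a segment. Computing used scipy 1.17.1, pandas 2.3.3 and numpy 2.4.6 in Python 3.11.15.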

Additional observations from a re-analysis of the deposited data

Results flagged for a closer look

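In 1 of 8 sets of non-conditioned values, a single library lay apart from the other 3, where chance gives about 1 set in 20. The 8 sets come from the same libraries and are not independent, so 1 flagged set is not read as an excess. For segments at 50% to 80% on chromosomes 1 and 10 to 14, non-conditioned library 1 had 62.4%, against 65.5%, 65.3% and 65.7% in libraries 2 to 4 (gap over range 0.888). The conditioned libraries had 68.4%, 59.6% and 63.6% there.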

How the results depend on the processing

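Of 90 alternative values, 75 stayed within the limits set for them, 12 moved outside and 3 changed sign. All 36 with the boundary at 18, 19, 21 or 22 Mb stayed. For counts and ratios the limit was a wide band, in which the density ratio of 1.60 counted as staying. For most medians and shares it was a 95% interval over segments, which is no error over libraries. For chromosomes 10 to 13 against chromosome 1, leaving out a library allows no exact permutation p under 0.05, so only a change of sign could fail. With at least 15 CpG positions per segment, the short-arm medians were 4.70% and 2.35%, the conditioned median of the rest was 2.17%, the median difference of the rest -2.05 points, and 88.2% and 88.8% of segments were lower. Without the first 4 Mb, chosen after values were seen, the short-arm medians were 4.57% and 2.42% and 82.5% of segments were lower. Without segments under 2% in both groups, the median difference of the rest was -2.02 points. At a q-value under 0.01, 6 of the 2036 segments of the rest and 10 of the 1232 of the short arm were called. The share of all segments called at that limit was not computed, so nothing is read from these counts. With chromosomes 11 to 28 and 33 as the microchromosomes, their median went from 5.91% to 7.04% and their density from 81.3 to 109.9 segments per Mb. The causes were not tested. Between chromosomes 10 to 13 and chromosome 1, the group difference ran from -0.000409 to 0.586 points without each library in turn. Pairing the libraries numbered 3 and 4 in a replicate block gave -0.0478 points (exact p = 1), where 2 pairs cannot give a p under 0.5. Deviations of same-numbered libraries had correlations of 0.0127 and 0.0492 across segments, and libraries of crossed numbers had -0.0409 and -0.0532. Whether the numbers pair the libraries cannot be read from these values. At 20% to 50% the difference ran from -1.68 to 4.23 points without each library in turn. Unknown read depth limits every value.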
